A study of Mus musculus with 12 samples.

Results

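Monocyte and macrophage identity genes were followed in osteoclast cultures that had or had not met eosinophils. The set holds 9 genes out of 47643 in the count table, taken by gene name, namely 5 monocyte genes (Ly6c2, F13a1, Fn1, Vcan and Emb), 2 lysozyme genes (Lyz1 and Lyz2) and 2 macrophage genes (Adgre1 and Cd68). All 9 passed the filter on low counts, as did 13681 genes in all. RNA was sequenced in bulk from 12 libraries of BALB/c WT mice, in 3 groups of 4. In OCsCtr, bone marrow-derived monocytes (BMMs) became osteoclasts over 3 days in M-CSF and RANKL without further treatment. In OCsEo, sorted eosinophils of IL-5tg/4get mice were present from day 0 for 48 h at a BMMs/Eos ratio of 1:2. In OCsEoS, the supernatant of eosinophils was present over the same time at a 1:2 dilution. Both stimuli were washed out and all cultures were harvested on day 3. The eosinophils were thus of another genotype than the cultures, one that makes excess IL-5, and OCsEo libraries can hold RNA of eosinophils that remained.

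Classical monocytes of the bone marrow carry high Ly6C at their surface and can give rise to both macrophages and osteoclasts. M-CSF keeps the cells alive and drives them towards macrophages, which carry F4/80, the product of Adgre1. RANKL then turns the same precursors into osteoclasts, which lose F4/80 and keep CD68, a glycoprotein of lysosomes.

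Total counts ranged from 27837530 to 40327869 per library, so that 3 counts, the floor used here, correspond to 0.0744 to 0.108 CPM, the unit of counts scaled to library size by the trimmed mean of M-values (TMM). Replicates of a group differed by more than counting error in all 18 pairs (chi-square per degree of freedom 10.2 to 36.5). The cells are labelled as osteoclasts, and 10 osteoclast markers summed to 28360 to 34500 CPM in OCsCtr, 18090 to 23210 CPM in OCsEo and 14940 to 22170 CPM in OCsEoS. Of these 10 genes, 8 were called lower in both stimulated groups (adjusted p below 0.05 and log2 fold change beyond 0.5 in size), among them the protease Mmp9 (-0.77 and -1.10). The other 2 were lower in both groups as well, at -0.32 to -0.42 (adjusted p of 0.0137 or less, edgeR quasi-likelihood F-test). Medians of all 10 on the log2 scale were -0.56 and -0.76, so the 9 identity genes were read in cultures whose osteoclast RNA differed between groups. In bulk RNA, fewer cells of a type and less RNA per cell cannot be told apart.

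The 2 lysozyme genes are near copies of each other, which is why their sequences are shown before the values. Lyz1 (ENSMUSG00000069515, chr10:117287796-117292868, minus strand of GRCm38) encodes lysozyme P, known from Paneth cells, and Lyz2 (ENSMUSG00000069516, chr10:117277334-117282274, minus strand) encodes lysozyme M of macrophages, monocytes and granulocytes. Their coding sequences are 444 bases long without the stop codon and differ at 22 positions, so 95% of the bases are the same. The first 150 coding bases from the start codon (GENCODE vM21, 5′ to 3′) are given with the 14 bases that differ in capitals.
Lyz1: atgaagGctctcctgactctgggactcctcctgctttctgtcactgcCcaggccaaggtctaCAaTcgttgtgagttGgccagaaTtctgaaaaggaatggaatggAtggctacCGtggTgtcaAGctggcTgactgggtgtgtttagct
Lyz2: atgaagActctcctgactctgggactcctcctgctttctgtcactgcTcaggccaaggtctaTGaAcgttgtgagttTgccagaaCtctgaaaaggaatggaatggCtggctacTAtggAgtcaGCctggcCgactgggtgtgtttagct
Long runs without a capital show where short reads of the genes are alike. Of all stretches of 50 bases in the Lyz1 transcript, 195 of 1214 (16.1%) occur letter for letter in Lyz2, and 195 of 1267 (15.4%) of those of Lyz2 occur in Lyz1.

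The likeness went on before the transcription start. The 120 bases upstream of each start (RefSeq, GRCm38.p6, 5′ to 3′ on the minus strand, chr10:117292869-117292988 for Lyz1 and chr10:117282273-117282392 for Lyz2) differ at 9 positions, again in capitals, and are 92.5% the same. They are printed because the genes behind these like sequences differed widely in level, with Lyz2 at 954 to 1881 times the level of Lyz1 per exon length over the 12 libraries.
Lyz1: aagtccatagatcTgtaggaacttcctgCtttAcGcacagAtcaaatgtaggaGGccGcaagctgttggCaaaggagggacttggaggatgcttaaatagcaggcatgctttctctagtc
Lyz2: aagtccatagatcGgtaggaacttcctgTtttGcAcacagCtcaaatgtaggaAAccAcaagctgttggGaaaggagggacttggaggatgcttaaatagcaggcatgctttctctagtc
Further upstream the sequences part, since over 250 ungapped bases before the start 98 differ and 60.8% are the same.

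Levels of different genes were compared as TPM, in which counts are divided by the exon length given in the count table and then scaled to the same total in each library. In OCsCtr, Lyz2 stood at 6690 ± 344 TPM (SD, n = 4), Cd68 at 1195 ± 43.7 TPM, Emb at 389 ± 29.7 TPM and Adgre1 at 152 ± 19.8 TPM. No value of these 4 genes reached those of its neighbour in the order in OCsCtr, whereas in OCsEoS Emb (241 to 303 TPM) and Adgre1 (198 to 247 TPM) overlapped. A wide step followed, below which Vcan (6.71 ± 0.666 TPM), Ly6c2 (6.34 ± 2.53 TPM), F13a1 (6.09 ± 1.88 TPM) and Lyz1 (5.09 ± 1.39 TPM) overlapped in OCsCtr and could not be ranked beyond their spread. Fn1 was lowest at 0.917 ± 0.374 TPM, under every OCsCtr value of the other genes. Thus 1 of the 5 monocyte genes, Emb, was expressed at the height of the macrophage genes, while the others were low in these day-3 cultures. The place of Ly6c2 rested on the length chosen, because with coding length it rose to 18.6 TPM in OCsCtr, above Lyz1, F13a1 and Vcan. Other levels moved as well, so that in OCsCtr Cd68 came to 627 TPM, Adgre1 to 74.3 TPM and Vcan to 4.00 TPM, and in OCsEoS Emb came to 216 ± 21.4 TPM and Adgre1 to 103 ± 10.9 TPM, further apart than with exon length.

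**Figure D1:**
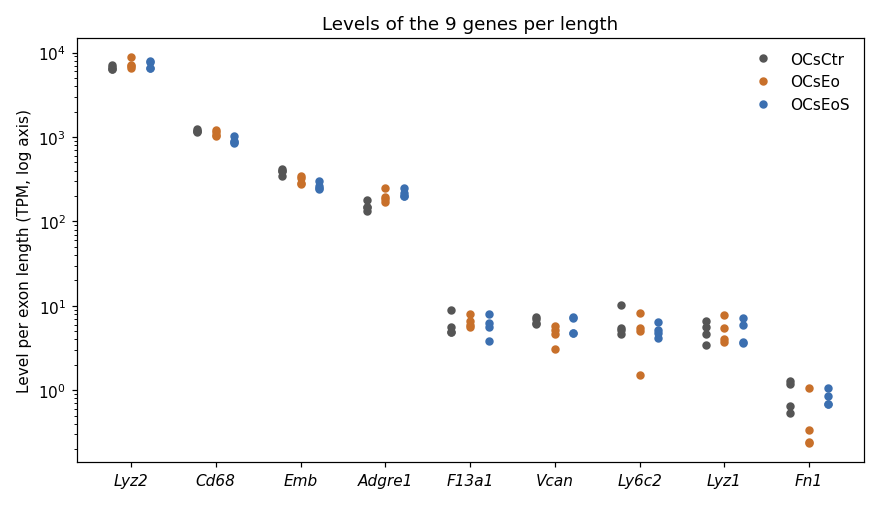
Level of each gene per exon length (TPM, log axis), with 1 point per library and the groups side by side in colour. Lyz2, Cd68, Emb and Adgre1 lie at 133 TPM or more in all libraries, and the other 5 genes at 10.1 TPM or less.

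Ly6c2 (ENSMUSG00000022584, chr15:75108158-75111970, minus strand) encodes a Ly6C antigen, the surface marker of classical monocytes. It was measured at 6.21, 7.30, 7.51 and 13.9 CPM in OCsCtr 1 to 4, at 2.15, 7.20, 8.36 and 11.7 CPM in OCsEo, and at 6.80, 7.24, 6.11 and 9.30 CPM in OCsEoS. All 3 groups overlapped, with OCsCtr 4 high and OCsEo 1 low. The log2 fold change from OCsCtr was -0.25 in OCsEo (95% interval -0.94 to 0.44, adjusted p = 0.681) and -0.24 in OCsEoS (-0.94 to 0.45, adjusted p = 0.662). On the lower side both intervals reach well beyond the size threshold for a call. Without OCsCtr 4 the values were 0.07 in both comparisons, and without OCsEo 1 the value in OCsEo was 0.05, so the sign changed with single libraries. Of the 50-base stretches of the Ly6c2 transcript, 162 of 773 (21%) also occur in its neighbour Ly6c1, so reads of the pair are partly shared, and Ly6c1 itself was not called either (0.19 and -0.02 on the log2 scale).

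F13a1 (ENSMUSG00000039109, chr13:36867178-37050244, minus strand) encodes the A subunit of coagulation factor XIII, a transglutaminase of monocytes, macrophages and platelets. Its values were 10.8, 9.88, 9.80 and 17.4 CPM in OCsCtr, 12.1, 11.5, 14.6 and 16.4 CPM in OCsEo, and 11.4, 16.2, 13.1 and 7.79 CPM in OCsEoS. OCsCtr 4 again was highest, OCsEoS 4 was lowest, and the groups overlapped. Log2 fold changes were 0.19 (-0.24 to 0.62, adjusted p = 0.605) in OCsEo and 0.02 (-0.42 to 0.45, adjusted p = 0.969) in OCsEoS. With single libraries left out they ranged from 0.09 to 0.43 in OCsEo and from -0.15 to 0.25 in OCsEoS, and the value of 0.43 was that without OCsCtr 4 (adjusted p = 0.176, the lowest among the alternatives). Exons of the antisense gene Gm30489 overlap F13a1 on the opposite strand, and whether reads were counted by strand is not given in the sources used here.

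Fn1 (ENSMUSG00000026193, chr1:71585520-71653200, minus strand) encodes fibronectin, a matrix protein made by monocytes and, in larger amounts, by stromal cells. Its values were 7.35, 3.92, 3.21 and 6.93 CPM in OCsCtr, 1.43, 6.51, 1.59 and 2.04 CPM in OCsEo, and 6.51, 5.15, 4.39 and 4.17 CPM in OCsEoS. In OCsEo, 3 libraries lay below all others and OCsEo 2 stood among the libraries of the other groups. The log2 fold change was -0.88 ± 0.39 (SE, n = 4 per group) in OCsEo with an adjusted p of 0.134, which missed the threshold, and -0.08 (-0.88 to 0.72, adjusted p = 0.914) in OCsEoS. Without OCsEo 2 the value in OCsEo was -1.66 with an adjusted p of 0.00101, and without a filter on low counts it was -0.88 with 0.0224, over a range of 0.00101 to 0.314 among the 20 alternatives. One library and the filter thus decided the call.

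Stromal markers moved with Fn1 from library to library. Col1a1, a chain of collagen I, stood at 27.9, 3.59, 4.56 and 13.1 CPM in OCsCtr, 4.63, 21.4, 4.56 and 4.12 CPM in OCsEo, and 12.6, 8.34, 16.3 and 5.45 CPM in OCsEoS. OCsCtr 1, OCsCtr 4 and OCsEo 2 were high for Col1a1 and Fn1 alike, whereas OCsEoS 3 had the highest Col1a1 of its group but not the highest Fn1 (4.39 CPM). The 8 stromal markers summed to 14.6 to 68.8 CPM in OCsCtr, 12.9 to 47.2 CPM in OCsEo and 15.0 to 46.3 CPM in OCsEoS. None of them was at 0 in every library, and none of the 7 tested was called in any comparison. After subtraction of group means, log2 CPM of Fn1 and the log2 sum of stromal markers had a Pearson r of 0.79 over the 12 libraries, a description of libraries that also share depth, against 0.24 for F13a1, the next of the 9 genes. The part of stromal cells in the Fn1 values was not tested.

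**Figure D2:**
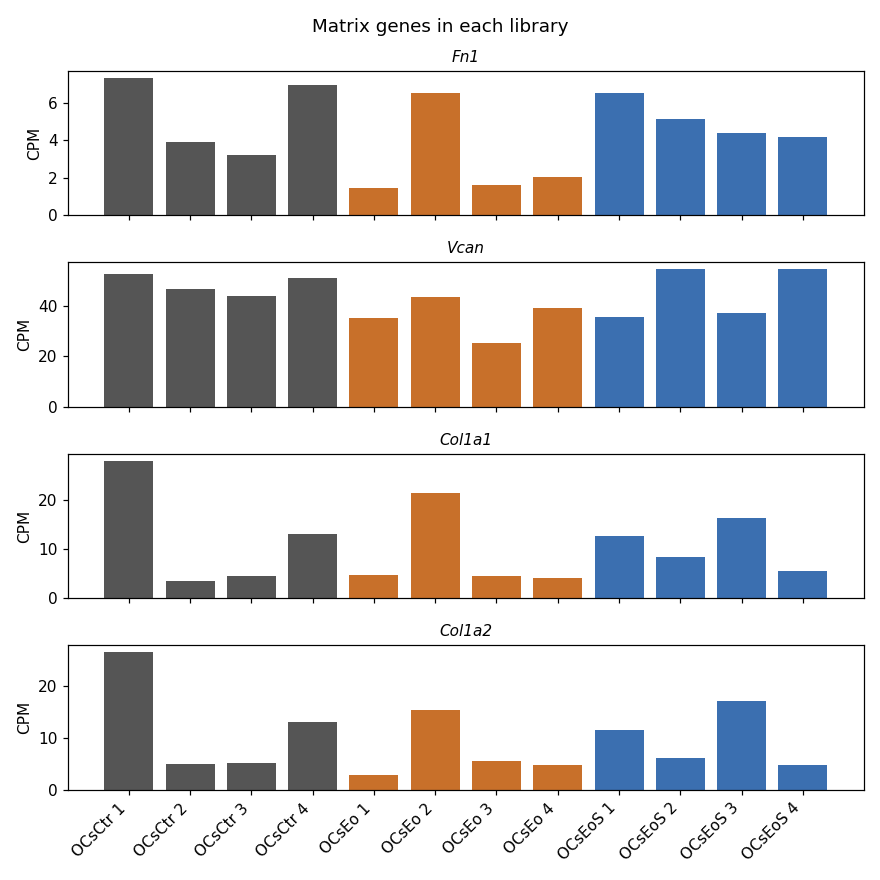
CPM of Fn1, Vcan, Col1a1 and Col1a2 in each of the 12 libraries, with bars coloured by group. Fn1 is high in OCsCtr 1, OCsCtr 4 and OCsEo 2, where Col1a1 (27.9, 13.1 and 21.4 CPM) and Col1a2 are also high. Vcan is highest in the same libraries within OCsCtr and OCsEo but low in OCsEoS 3 (37.2 CPM), where Col1a1 is high.

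Vcan (ENSMUSG00000021614, chr13:89655312-89742509, minus strand) encodes versican, a large matrix proteoglycan and a marker of classical monocytes. Its values were 52.8, 46.9, 44.0 and 51.1 CPM in OCsCtr, 35.3, 43.3, 25.4 and 39.1 CPM in OCsEo, and 35.7, 54.4, 37.2 and 54.5 CPM in OCsEoS. Every OCsEo library lay below every OCsCtr library, although OCsEo 2 came close, while OCsEoS had 2 libraries below and 2 above the OCsCtr range. Within OCsCtr and OCsEo the highest values lay in libraries with high Col1a1, though not within OCsEoS, and the Pearson r of Vcan with the stromal sum after subtraction of group means was 0.03 over the 12 libraries. The log2 fold change in OCsEo was -0.45 ± 0.15 (adjusted p = 0.0440), past the threshold on p but not the one on size. Without OCsEo 2 it was -0.55 and called, and after removal of a trend with gene length it was -0.28 with an adjusted p of 0.140, within a range of 0.00130 to 0.148 among its alternatives. In OCsEoS the value was -0.10 (-0.41 to 0.21, adjusted p = 0.705), and the direct comparison of OCsEoS with OCsEo gave 0.35 (0.04 to 0.66, adjusted p = 0.385), so a difference between the stimuli was not shown for Vcan.

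Emb (ENSMUSG00000021728, chr13:117220625-117274098, plus strand) encodes embigin, an immunoglobulin-family glycoprotein that accompanies monocarboxylate transporters to the cell surface. Its values were 379.7, 464, 452 and 466 CPM in OCsCtr, 326, 402, 364 and 376 CPM in OCsEo, and 289, 351, 318 and 283 CPM in OCsEoS. OCsEoS lay wholly below OCsCtr, and OCsEo overlapped both, with OCsEo 2 above the low OCsCtr 1 and OCsEo 1 below OCsEoS 2. Emb fell in OCsEoS by 0.51 on the log2 scale (SE 0.08, 95% interval -0.67 to -0.34, adjusted p = 1.43e-04), so its level decreased by 29.6%. In OCsEo the log2 fold change was -0.26 ± 0.08 (adjusted p = 0.0262), too small to be called, and its adjusted p ranged up to 0.0979 among the alternatives. The call in OCsEoS stood at the edge of the size threshold. It was lost without OCsCtr 2, OCsCtr 3, OCsCtr 4, OCsEoS 1 or OCsEoS 4, with log2 fold changes of -0.47, -0.49, -0.48, -0.47 and -0.46, while the adjusted p stayed at or below 0.00119 in all alternatives. Emb was the only monocyte gene of the 5 that was called.

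Lyz1, the low copy, was measured at 2.88, 4.36, 2.18 and 3.55 CPM in OCsCtr, 2.45, 3.56, 2.87 and 5.06 CPM in OCsEo, and 3.92, 4.69, 2.52 and 2.42 CPM in OCsEoS. The groups overlapped throughout. Its log2 fold changes were 0.10 (-0.51 to 0.71, adjusted p = 0.867) in OCsEo and 0.06 (-0.55 to 0.67, adjusted p = 0.914) in OCsEoS. Lyz1 counts came to 0.0531% to 0.105% of Lyz2 counts. After subtraction of group means, log2 CPM of Lyz1 and Lyz2 had a Pearson r of 0.80 over the 12 libraries. Given the shared stretches shown above, the Lyz1 counts are uncertain, and how many came from Lyz2 transcripts was not tested.

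Lyz2 was the most abundant of the 9 genes and took 0.407% to 0.565% of all counts. Its values were 4214, 4169, 4106 and 4515 CPM in OCsCtr, 4548, 4677, 4685 and 5774 CPM in OCsEo, and 5201, 5072, 4484 and 4341 CPM in OCsEoS. All OCsEo libraries lay above OCsCtr, by a narrow margin except for OCsEo 4, and OCsEoS overlapped OCsCtr. The log2 fold change was 0.21 ± 0.07 (adjusted p = 0.0434) in OCsEo and 0.17 ± 0.07 (adjusted p = 0.0948) in OCsEoS, neither of which was called. Without OCsEo 4 the value in OCsEo was 0.12 with an adjusted p of 0.189, and the adjusted p was also above 0.05 without OCsCtr 1, OCsCtr 2 or OCsCtr 3 (0.0861, 0.0884 and 0.105). After removal of the length trend the values were 0.11 and 0.04, with adjusted p of 0.357 and 0.760.

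Lysozyme M is also made by neutrophils and their precursors. The 10 neutrophil markers summed to 322 to 471 CPM in OCsCtr, 471 to 627 CPM in OCsEo and 365 to 437 CPM in OCsEoS. Elane, a granule protease (log2 fold change 0.99, adjusted p = 3.80e-04), and Camp, an antimicrobial peptide precursor (0.51, adjusted p = 0.00876), were called higher in OCsEo, as were 3.27% of all genes. The median log2 fold change of the 10 was 0.41 in OCsEo, where no marker fell, and -0.25 in OCsEoS. In OCsEoS 0 of the 10 were called, and none was at 0 in every library. In OCsEo 4, where Lyz2 was highest, the neutrophil sum was 471 CPM, the lowest of that group. That is a single library, and S100a8 and S100a9 made up most of the sum in OCsEo (means of 141 and 203 CPM). Of the eosinophil markers, Siglecf was at 2.53 to 3.28 CPM in OCsEo against 0.218 to 0.653 CPM in OCsCtr, and Epx at 0 to 0.479 CPM. Of the 5 eosinophil markers tested, Siglecf and Alox15 were called higher in OCsEo, while Ccr3, the most abundant of them, stood at -0.29 (adjusted p = 0.0164) and Prg2 at -0.01 (adjusted p = 0.994) on the log2 scale in OCsEo. The median of these 5 was -0.01, and the 10 eosinophil markers summed to 57.1 to 73.7 CPM in OCsCtr and 60.1 to 82.2 CPM in OCsEo, which overlapped. Ccr3 made up most of these sums, with means of 59.6 CPM in OCsCtr, which met no eosinophils, and 48.7 CPM in OCsEo. The overlap of the sums therefore does not show that eosinophil RNA was unchanged in OCsEo. Alox15 and Siglecf rose there by 5.17 and 2.76 on the log2 scale, while the 3 markers not called had values below 0. The part of these cells in the Lyz2 values was not tested.

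**Figure D3:**
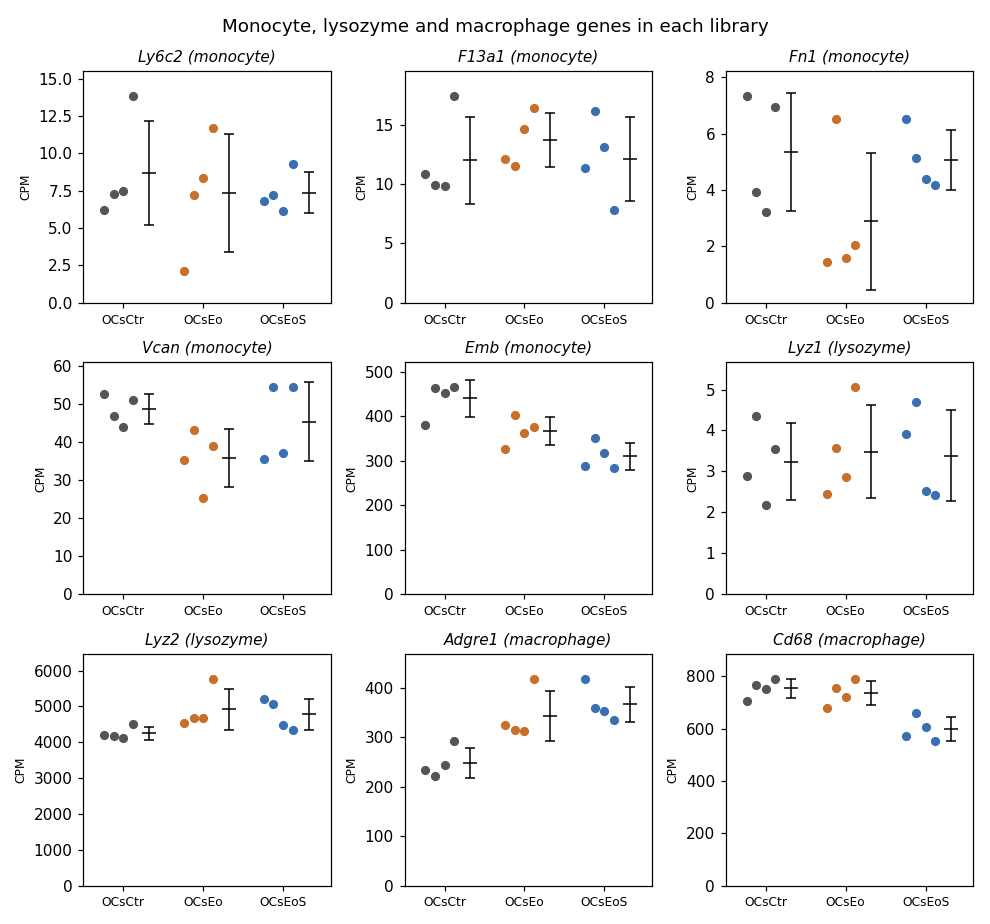
CPM of the 9 genes in each library, with 1 panel per gene, points for the 4 libraries of a group in replicate order from left to right, and the mean with SD as a black bar beside them; each axis starts at 0. Adgre1 lies higher in all stimulated libraries than in OCsCtr, Emb and Cd68 lie lower in OCsEoS, and the low monocyte genes overlap except Vcan in OCsEo.

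Adgre1 (ENSMUSG00000004730, chr17:57358686-57483529, plus strand) encodes F4/80, an adhesion receptor used as a marker of mouse macrophages, though not confined to them. Its values were 233, 223, 243 and 293 CPM in OCsCtr, 324, 314, 313 and 418 CPM in OCsEo, and 417, 359.7, 353 and 334 CPM in OCsEoS. All 8 stimulated libraries lay above all 4 of OCsCtr. Adgre1 rose in OCsEoS by 0.56 on the log2 scale (SE 0.10, 95% interval 0.36 to 0.76, adjusted p = 2.97e-04), a 1.48-fold higher level. In OCsEo the log2 fold change was 0.46 (0.26 to 0.67, adjusted p = 0.00211), just short of the size threshold. Without OCsCtr 4, OCsEo 2 or OCsEo 3 it came to 0.55, 0.50 and 0.50 and was called, whereas without OCsEo 4, the highest library, it came to 0.35, the lowest value with a library left out. The 2 stimuli differed by 0.10 (-0.10 to 0.30, adjusted p = 0.760), an interval that leaves room for a modest difference in either direction. The part of remaining eosinophils in the Adgre1 values of OCsEo was not tested.

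Cd68 (ENSMUSG00000018774, chr11:69664213-69666153, minus strand), the second macrophage gene, went another way. Its values were 708, 766, 751 and 792 CPM in OCsCtr, 681, 755, 723 and 791 CPM in OCsEo, and 573, 659.7, 608 and 555 CPM in OCsEoS. OCsEo overlapped OCsCtr, and all OCsEoS libraries lay below both groups. The log2 fold change was -0.03 (-0.16 to 0.10, adjusted p = 0.789) in OCsEo. It was -0.33 (-0.46 to -0.20, adjusted p = 6.16e-04) in OCsEoS, past the threshold on p but under that on size. Cd68 was the only one of the 9 genes with an adjusted p under 0.05 between the stimuli, at -0.30 ± 0.06 in OCsEoS against OCsEo (adjusted p = 0.0271), but it was not called for size. This p ranged from 9.29e-04 to 0.106 among its alternatives and was above 0.05 without OCsEo 2, OCsEo 4, OCsEoS 1, OCsEoS 3 or OCsEoS 4.

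Per length, Cd68 was 6.98 to 8.88 times as high as Adgre1 in OCsCtr, 4.88 to 6.22 times in OCsEo and 3.55 to 4.74 times in OCsEoS. The balance of the 2 macrophage genes therefore separated the 3 groups without overlap, which is given as a description, because the ratio was formed after the values were seen. The ratio of Emb to Adgre1 per length was 2.29 to 3.01 in OCsCtr, 1.29 to 1.85 in OCsEo and 0.999 to 1.40 in OCsEoS, so the stimulated groups overlapped with each other but not with OCsCtr.

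Calls required both an adjusted p below 0.05 (edgeR quasi-likelihood F-test, Benjamini-Hochberg over all genes tested) and a log2 fold change of more than 0.5 in size. In OCsEo against OCsCtr, 0 of the 9 genes were called, where 3.27% of all genes were called higher and 2.61% lower. With edgeR 5 of the 9 had an unadjusted p under 0.05 and 4 an adjusted p under 0.05, and DESeq2 also called 0. Adgre1 and Lyz2 were higher in every library without overlap (10.5% of all genes) and Vcan lower (10.9%). In OCsEoS against OCsCtr, 2 of 9 were called, Adgre1 higher (3.63% of all genes) and Emb lower (4.11%). Adgre1 was higher without overlap (12.6% of all genes), and Cd68 and Emb were lower (13.1%). Between OCsEoS and OCsEo 0 were called, where 0.0731% of all genes were called higher and 0.307% lower, with 3 unadjusted p under 0.05, and DESeq2 likewise called 0.

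The median log2 fold change of the 9 genes was -0.03 in OCsEo and -0.08 in OCsEoS, and that of the 5 monocyte genes -0.26 and -0.10, beside -0.01 over all genes tested in both. The 9 genes did not share a direction, with point values above 0 for 4 and below 0 for 5 in either comparison. Both comparisons use the same OCsCtr libraries.

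**Figure D4:**
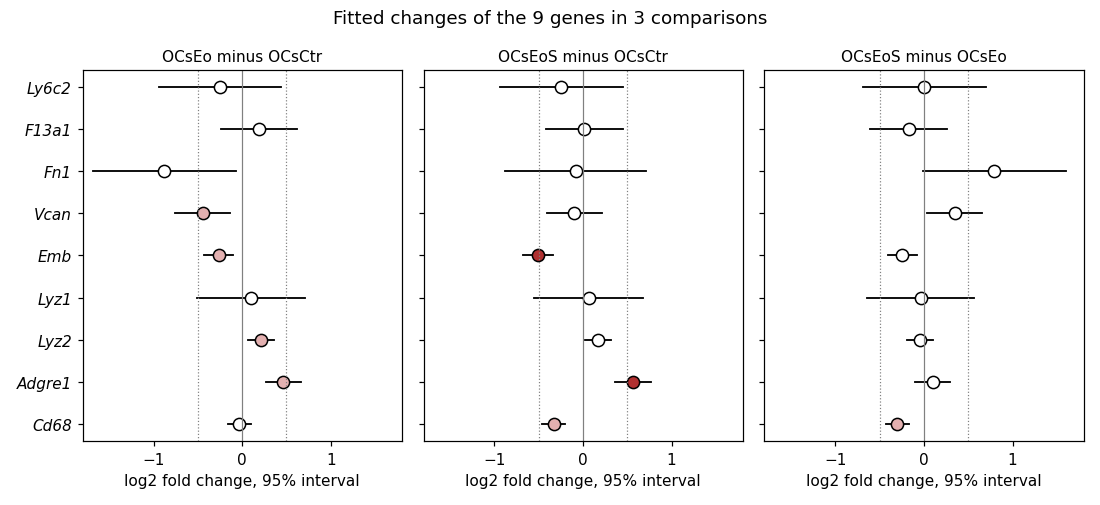
Log2 fold change of each gene in the 3 comparisons with its 95% interval (horizontal line), where dotted lines mark the size threshold of 0.5, dark red points are called, pale points have an adjusted p under 0.05 only, and white points neither. Adgre1 (0.56) and Emb (-0.51) are the called genes, both in OCsEoS against OCsCtr, and the low genes Fn1, Ly6c2 and Lyz1 have the widest intervals.

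Other genes of these cell types were read from lists. Their counts stand beside shares over all genes of 3.27% called higher and 2.61% lower in OCsEo, and 3.63% and 4.11% in OCsEoS. Of 12 further classical monocyte genes, 1 was called higher and 0 lower in each stimulated group, with medians of 0.12 in OCsEo and 0.04 in OCsEoS. The called gene was Mgst1, a microsomal glutathione transferase, at 10.5 to 15.1 CPM in OCsCtr, 26.0 to 39.8 CPM in OCsEo and 26.0 to 39.0 CPM in OCsEoS. It rose by 1.32 (adjusted p = 6.70e-06) and 1.36 (adjusted p = 6.08e-06) on the log2 scale. Ccr2, the receptor by which monocytes leave the bone marrow, stood at 0.04 (adjusted p = 0.873) and 0.25 (adjusted p = 0.147). Of 8 patrolling monocyte genes 7 were tested and 0 called in either direction, with medians of -0.06 and -0.05.

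Of 19 further macrophage genes 17 were tested, of which 2 were called higher and 0 lower in OCsEo (median 0.22), and 3 higher and 2 lower in OCsEoS (median 0.17). Over all genes, 3.27% were called higher and 2.61% lower in OCsEo, and 3.63% and 4.11% in OCsEoS. Cd14, a co-receptor for lipopolysaccharide, rose by 0.58 and 0.69 (adjusted p = 1.47e-06 and 4.56e-07), and the mannose receptor Mrc1 rose in OCsEoS by 0.80 (adjusted p = 0.0188) with overlapping groups. The 2 called lower in OCsEoS were Csf1r, the M-CSF receptor, and Tpp1, a lysosomal peptidase, at -0.57 and -0.51 (adjusted p = 3.33e-05 and 3.05e-05), named after their values were seen. In OCsEo these 2 genes were lower as well, at -0.44 and -0.32 (adjusted p = 4.49e-04 and 0.00246), short of the size threshold. Macrophage genes thus were called in both directions in OCsEoS, as the values of Adgre1 and Cd68 also lay on both sides.

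Among 10 myeloid transcription factors 2 were called higher and 0 lower in each group, with medians of 0.30 and 0.27. The shares of all genes called higher were 3.27% in OCsEo and 3.63% in OCsEoS. Id3, an inhibitor of basic helix-loop-helix factors, rose by 0.53 and 0.54 (adjusted p = 6.15e-04 and 3.42e-04). Spi1, which encodes PU.1, the factor on which monocytes and osteoclasts both depend, stood at -0.02 (adjusted p = 0.867) and -0.14 (adjusted p = 0.0509). Irf8, which favours monocytes and restrains osteoclast formation, stood at 0.28 (adjusted p = 0.105) and 0.22 (adjusted p = 0.197).

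The genes whose log2 CPM followed Adgre1 most closely over the 12 libraries, of 8377 ranked, were Fcgr3, an IgG receptor of myeloid cells (Pearson r = 0.98), Gatm, an enzyme of creatine synthesis (0.97), and Lamp2, a lysosomal membrane protein (0.95). Fcgr3 stood at 27.4 to 37.4 CPM in OCsCtr, 44.8 to 66.4 CPM in OCsEo and 47.5 to 65.1 CPM in OCsEoS, with OCsEo 4 highest as for Adgre1. For Ly6c2 the closest of 8378 genes were Nprl2 (0.84), Lipo1 (0.83) and Gm6055 (0.81), lower values than for Adgre1. These correlations describe 12 libraries that share group and depth. After subtraction of group means, Cd68 and Emb had a Pearson r of 0.90, and Adgre1 and Lyz2 one of 0.86, over the 12 libraries.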

How the data were processed

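RNA of 12 mouse libraries, 4 each of OCsCtr, OCsEo and OCsEoS, was analysed, with groups and replicate numbers from the sample labels and described as biological replicates in the study's methods. The authors removed adapters and low-quality reads (fastp in their processing notes), aligned with HISAT2 2.0.5 to GRCm38/mm10 and deposited raw counts per gene from featureCounts. The annotation release and the strand setting are not given in the sources used here. From these counts, filterByExpr (minimum count 10) left 13681 genes, and libraries were scaled by TMM (factors 0.968 to 1.03). A single fit of 3 groups was tested with edgeR 4.0.16 (quasi-likelihood F-test, R 4.3.3, limma 3.58.1), with Benjamini-Hochberg adjustment over all genes tested. Each adjusted p of a gene is from this fit unless an alternative is named, and calls needed an adjusted p below 0.05 and a log2 fold change of more than 0.5 in size. CPM use TMM-scaled library sizes, and correlations use log2 CPM with a prior count of 2. TPM were computed from the exon lengths in the count table.

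Coordinates and coding sequences came from GENCODE vM21 and promoters from RefSeq (GRCm38.p6), in which 7 of the 9 genes were matched and Adgre1 and Fn1 were not. The 9 genes and all lists were chosen with earlier results of these data known. Genes named beside the 9 were, per list, up to 3 called genes with the largest changes, and for Adgre1 and Ly6c2 the 3 closest genes among those whose mean log2 CPM reached 3. Ccr2, Ly6c1, Spi1 and Irf8 were named after their values were seen, as were the values of single stromal and eosinophil markers. The lists were classical and patrolling monocyte, macrophage, myeloid transcription factor, osteoclast, eosinophil, neutrophil, stromal, megakaryocyte and platelet, dendritic cell, T cell and B cell genes. A gene that this rule would name is not reported here. Scripts were tested on simulated data. Alternatives were DESeq2 1.42.0, 2-group fits, other scalings, filters and thresholds, a replicate block, coding length, each library left out, and, added after seeing the data, removal of a trend with gene length per library. Deviations of same-numbered libraries of different groups had a Pearson r of -0.04 to 0.09 over 12 pairs. The 36 other pairs ranged from -0.11 to 0.12, so the ranges overlapped. This does not settle whether the numbers pair the libraries.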

Additional observations from a re-analysis of the deposited data

Results flagged for a closer look

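In a group of 4, a library was taken to stand apart where its gap to the nearest other, divided by the range of the group, passed Dixon's 95% critical value, which chance gives in about 1 in 20 groups, and 27 groups were examined. Adgre1 was 418.1 CPM in OCsEo 4, with the other 3 at 313.4 to 323.6 CPM. Lyz2 was 5774 CPM in the same library, with the others at 4548 to 4685 CPM. Ly6c2 was 13.87 CPM in OCsCtr 4 against 6.205 to 7.508 CPM, and F13a1 was 17.45 CPM there against 9.804 to 10.82 CPM. Fn1 was 6.513 CPM in OCsEo 2 against 1.434 to 2.044 CPM, and Emb was 379.7 CPM in OCsCtr 1 against 451.9 to 465.6 CPM, the only low value among them.

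Cd68 had a log2 fold change of -0.30 in OCsEoS against OCsEo (adjusted p = 0.0271 by edgeR's quasi-likelihood test, lower in 4 of 4 libraries). It was under the size threshold for a call, and the adjusted p ranged from 9.29e-04 to 0.106 among the alternatives, passing 0.05 when any of 5 single libraries was left out.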

How the results depend on the processing

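Fn1, Lyz1, Ly6c2 and F13a1, all under 20 CPM, had intervals that held changes on either side of 0 in most comparisons, so an absence of change was not shown. The parts of depth and of spread between replicates in these intervals were not separated. In OCsEoS against OCsCtr, 2 of the 9 genes were called, against 1 with edgeR on the 2 groups alone (Emb -0.50), 1 with at least 10 counts in every library (Emb -0.50), 0 with a threshold of 1, 3 without a size threshold (Cd68 added), and 1 to 2 with a library left out. In OCsEo against OCsCtr 0 were called, against 1 without the filter (Fn1), 4 without a size threshold, and 0 to 3 with a library left out (3 without OCsEo 2). Between the stimuli 0 were called, against 1 without a size threshold (Cd68) and 0 to 1 with a library left out (Fn1 1.58 without OCsEo 2). The cause was not tested, except that the thresholds themselves set the counts under other thresholds. With the replicate number as a block, 0, 2 and 0 genes were called in the 3 comparisons, as without it, with Adgre1 at 0.57 and Emb at -0.51 in OCsEoS. The block lowered the edgeR adjusted p of Vcan in OCsEo from 0.0440 to 0.00509. That of Emb between the stimuli went from 0.224 to 0.0429, while the SE of F13a1 in OCsEo rose from 0.206 to 0.212. Whether the numbers pair the libraries was not settled.

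Signs changed only in genes that were not called. With the length trend taken out, Lyz1, Fn1 and Vcan in OCsEoS came to -0.056, 0.11 and 0.12. With single libraries left out, values ranged in OCsEo from -0.13 to 0.28 for Lyz1, -0.56 to 0.066 for Ly6c2 and -0.068 to 0.0037 for Cd68. In OCsEoS they ranged from -0.15 to 0.25 for F13a1, -0.26 to 0.10 for Fn1, -0.39 to 0.071 for Ly6c2, -0.13 to 0.24 for Lyz1 and -0.19 to 0.0097 for Vcan. Between the stimuli they ranged from -0.31 to 0.31 for Ly6c2, -0.24 to 0.19 for Lyz1 and -0.089 to 0.042 for Lyz2. DESeq2 and the other scalings gave the same calls. With a library left out, 286 values of single genes kept direction and call, 27 changed sign, 6 gained and 5 lost a call. Under other settings 210 kept both, 3 changed sign, 1 gained and 2 lost a call.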

Other observations

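Markers of other cells were present in all groups. Over all genes, 3.27% were called higher and 2.61% lower in OCsEo, and 3.63% and 4.11% in OCsEoS. Between the stimuli these shares were 0.0731% and 0.307%. The 6 megakaryocyte and platelet genes summed to 97.2 to 178 CPM over all libraries and had 0 called in OCsEo and 1 higher in OCsEoS, Pf4, a platelet chemokine, at 0.89 (adjusted p = 5.11e-04, edgeR quasi-likelihood test). The others had lower values in OCsEoS than in OCsCtr, and the median of the 6 was -0.39 there. Of 6 dendritic cell genes 1 was called lower in OCsEo, the transcription factor Zbtb46, at -1.77 (adjusted p = 0.0128), and 0 in OCsEoS. Zbtb46 was low, with means of 0.782 CPM in OCsEo and 2.68 CPM in OCsCtr, and the median of the 6 genes was 0.23 in OCsEo. Of 5 eosinophil genes tested out of 10, Alox15 (5.17, adjusted p = 8.42e-07) and Siglecf (2.76, adjusted p = 5.62e-04) rose in OCsEo, and Prg2, a granule protein, fell by 2.74 in OCsEoS (adjusted p = 0.00136). T cell genes (3 tested) and B cell genes (6 tested) had 0 called, with sums of at most 3.62 CPM and 22.1 CPM in any library. Between the stimuli, 1 macrophage gene, Pld3 (-0.52), 3 neutrophil genes, Mpo (-0.79), Ltf (-0.84) and Ngp (-0.62), and 2 eosinophil genes, Prg2 (-2.73) and Alox15 (-4.03), were called lower in OCsEoS, and the first 4 were named after their values were seen.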
